A study of Mus musculus with 43 samples.

Results

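EKLF, the erythroid Krüppel-like factor encoded by Klf1, was mapped over the mouse alpha-globin cluster and the neighbouring gene Nprl3 by chromatin immunoprecipitation followed by sequencing (ChIP-seq). The members were the called regions whose centre lay at chr11:32226963-32307310 (mm10), which runs from 5 kb below Nprl3 to 10 kb above Hba-a2 and holds the 4 genes Nprl3, Hba-x, Hba-a1 and Hba-a2. Of 24745 regions in both lists together, 22 were members, namely 15 of 9181 regions in the wild type (WT) list and 7 of 15564 in the Nan/+ list. Both groups were dispersed cells of fetal liver at embryonic day E13.5, labelled as primary erythroid, from littermates. WT embryos came from the Nan strain and carried no Nan allele, and Nan/+ embryos were heterozygous for Nan, a mutant allele of Klf1, so that they kept 1 normal copy beside it. ChIP used the anti-EKLF antibody 7B2a, and the labels do not say whether it tells the normal from the Nan protein. Each list was called from 3 ChIP libraries together, with 72023512 to 103170594 tags a library, per the file headers. The lists give positions without a strength and without values per replicate. Differences between them therefore had no replicate check and no test, and a region found in 1 list alone may lie just under the calling threshold in the other. Of the 43 samples of the series, those for CBP, H3K27ac, RNA polymerase II and ATAC were not used here.

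EKLF is a zinc-finger transcription factor that binds CACCC-type sequences at red cell genes. The alpha-globin cluster carries Hba-x, the embryonic zeta-globin gene, then the duplicated adult genes Hba-a1 and Hba-a2, each followed by a theta-globin gene, Hbq1b and Hbq1a. Their erythroid enhancers lie upstream, mostly in introns of Nprl3, a widely expressed gene for a subunit of GATOR1, which restrains mTORC1 signalling when amino acids are scarce. In this window Nprl3 is transcribed toward lower coordinates and all globin genes toward higher ones, so the enhancers and the Nprl3 start face the globin genes.

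Promoter sequences are shown first, to place the regions relative to the gene starts. Each is 250 bases before to 50 bases after a gene start, 5′ to 3′ on the gene's strand, from RefSeq on GRCm38.p6, the assembly that mm10 renders. All 7 protein-coding genes that meet the window had an entry. Of these windows 3 met a WT region, in the following set, where capitals mark the bases that the WT region covered.
Nprl3, chr11:32267658-32267957, minus strand: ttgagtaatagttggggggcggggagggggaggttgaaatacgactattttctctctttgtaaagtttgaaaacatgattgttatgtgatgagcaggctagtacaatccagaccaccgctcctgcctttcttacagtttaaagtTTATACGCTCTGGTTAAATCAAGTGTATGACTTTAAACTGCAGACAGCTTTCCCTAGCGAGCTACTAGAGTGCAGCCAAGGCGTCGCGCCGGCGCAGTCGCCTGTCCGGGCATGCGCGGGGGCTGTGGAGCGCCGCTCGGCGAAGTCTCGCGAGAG
Hbq1b, chr11:32286714-32287013, plus strand: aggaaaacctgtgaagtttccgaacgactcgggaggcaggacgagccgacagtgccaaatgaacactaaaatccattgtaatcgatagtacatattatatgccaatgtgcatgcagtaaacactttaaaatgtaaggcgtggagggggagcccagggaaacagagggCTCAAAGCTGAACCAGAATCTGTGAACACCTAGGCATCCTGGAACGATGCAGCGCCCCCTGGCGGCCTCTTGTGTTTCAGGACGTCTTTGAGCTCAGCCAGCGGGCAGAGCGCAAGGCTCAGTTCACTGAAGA
Hbq1a, chr11:32299819-32300118, plus strand: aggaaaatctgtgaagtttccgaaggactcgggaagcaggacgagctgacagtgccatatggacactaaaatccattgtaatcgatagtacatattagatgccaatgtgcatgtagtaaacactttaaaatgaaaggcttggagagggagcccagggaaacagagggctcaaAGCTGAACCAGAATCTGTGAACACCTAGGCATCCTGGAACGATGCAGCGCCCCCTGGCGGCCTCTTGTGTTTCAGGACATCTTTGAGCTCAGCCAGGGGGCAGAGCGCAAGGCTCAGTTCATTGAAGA

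The WT regions covered positions 145 to 300 of the Nprl3 promoter, 168 to 300 of Hbq1b and 173 to 300 of Hbq1a, counted from the 5′ end. No Nan/+ region met any of the 7 promoters. Within 1 kb of the start, a distance chosen after seeing the data, 4 of 7 genes had a region in each list, but not the same 4. Nprl3 counted in WT alone and Hba-a2 in Nan/+ alone, while Hba-a1, Hbq1b and Hbq1a counted in both. The WT region at Hba-a1 and the Nan/+ region at Hba-a2 lay behind the gene, beginning 973 and 986 bases past the start. The share over all genes at this distance was not counted. Over all 32815 promoter windows of the RefSeq table, 13.7% met a WT region and 8.50% a Nan/+ region. The theta promoters are near copies, with 286 of 300 bases the same (95.3%).

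The second set shows globin promoters that no region of either list met, with capitals on each match to CACCC or CCNCNCCC on either strand, the short forms of the EKLF site. The 2 forms can overlap, since CACCC can lie inside CCNCNCCC.
Hba-x, chr11:32276350-32276649, plus strand: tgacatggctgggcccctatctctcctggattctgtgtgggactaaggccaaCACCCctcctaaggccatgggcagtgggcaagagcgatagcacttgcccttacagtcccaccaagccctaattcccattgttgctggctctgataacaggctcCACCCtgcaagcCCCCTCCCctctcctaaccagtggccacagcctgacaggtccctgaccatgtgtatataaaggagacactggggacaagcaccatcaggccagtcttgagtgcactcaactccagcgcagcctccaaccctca
Hba-a1, chr11:32283422-32283721, plus strand: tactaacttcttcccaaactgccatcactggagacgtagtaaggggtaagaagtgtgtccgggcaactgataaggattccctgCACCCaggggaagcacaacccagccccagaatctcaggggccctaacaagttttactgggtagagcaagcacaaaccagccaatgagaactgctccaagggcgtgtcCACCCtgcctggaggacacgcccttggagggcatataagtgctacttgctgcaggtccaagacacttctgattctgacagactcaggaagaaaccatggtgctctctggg

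The Hba-a2 promoter (chr11:32296242-32296541) is the same sequence as that of Hba-a1, identical over all 297 aligned bases with an offset of 3, and is not printed. In Hba-a1 the CACCC matches began 167 and 60 bases before the start, and in Hba-x they began 198 and 95 bases before it. CCNCNCCC matched once in Hba-x, 83 bases before the start, and not in Hba-a1, Hba-a2, Hbq1b or Hbq1a. The Nprl3 promoter held 4 overlapping CCNCNCCC matches on the opposite strand, the nearest beginning 225 bases before the start and all outside the bases that the WT region covered. Of all 32851 full-length promoters, 57.5% held CACCC and 49.5% held CCNCNCCC, so either match is common. AGATAA, a site for erythroid zinc-finger factors such as GATA1, matched in none of the 7 promoters (11.2% of all promoters). TGATAA, searched after the sequences were seen, matched in Hba-x, Hba-a1 and Hba-a2 (9.05% of all). CANNTG, the E-box, matched at 1 position in Nprl3, Hba-a1, Hba-a2, Hbq1b and Hbq1a and at 2 in Hba-x (72.3% of all). These matches are letters in a window and were not tested as binding sites.

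Across the window, WT regions lay over Nprl3, the space before Hba-x and both adult globin units, whereas Nan/+ regions lay mainly around the globin genes. The Nprl3 body (11:32231963-32267707, gene ID 17168) held 7 WT and 2 Nan/+ regions, and none of these overlapped. Over the whole lists 24.5% of WT and 14.7% of Nan/+ regions overlapped the other list. Counts of 7 and 2 are too small to tell 0 from these shares. The 8.89 kb between the Nprl3 start and Hba-x held 2 WT regions and 0 Nan/+ regions. From Hba-x to the end of Hba-a2 there were 4 regions in each list, 1 of them shared, and above Hba-a2 there were 2 in WT and 1 in Nan/+, 1 of them shared. The 5 kb below Nprl3, which lies in the body of the DNA repair gene Mpg, had none in either list, nor did the body of the long noncoding RNA gene Gm46275 at the higher edge.

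**Figure D1:**
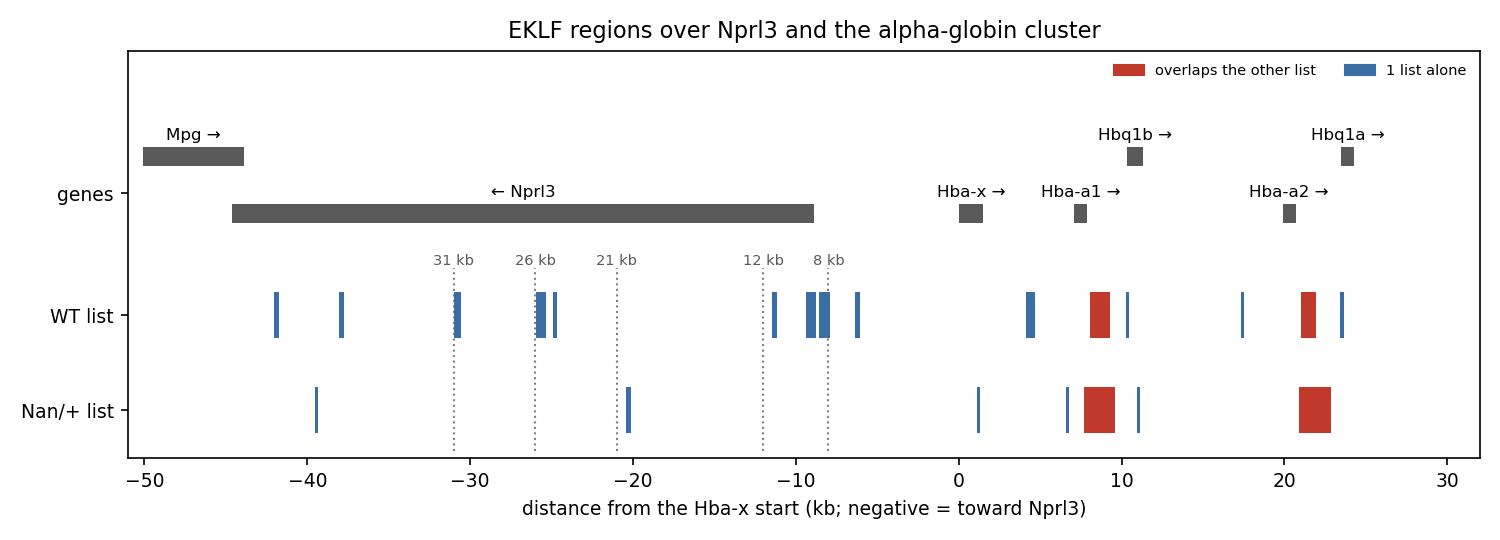
Called EKLF regions (blocks, drawn to scale) in the WT and Nan/+ lists, by distance in kb from the Hba-x start, with the genes above and their direction of transcription as arrows. Red blocks overlap the other list and blue blocks do not, and dotted lines mark 8, 12, 21, 26 and 31 kb before Hba-x. The 7 WT and 2 Nan/+ blocks over Nprl3 do not overlap, and the only red blocks lie behind Hba-a1 and Hba-a2.

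Within Nprl3 the WT regions fell in groups. From the end of the gene toward its start they were 32234564-32234830 (267 bp) and 32238530-32238855 (326 bp), then 32245606-32246008 (403 bp). Next came a close pair, 32250647-32251239 (593 bp) and 32251717-32251928 (212 bp). No WT region followed for 13.2 kb, the widest space between neighbouring WT regions of the window. The last were 32265133-32265415 (283 bp) and 32267236-32267813 (578 bp), of which the latter spanned the Nprl3 start. The Nan/+ regions were 32237090-32237265, at the minimum width of its list (176 bp), and 32256146-32256494 (349 bp), which lay inside the 13.2 kb space that the WT list left empty. The nearest WT region was 1264 bp from the first and 4217 bp from the second. The gene table gives no exons, so whether a region is exonic or intronic is not stated here.

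The erythroid hypersensitive sites of this locus are named in the literature for their rounded distance before the Hba-x cap site, at 8, 12, 21, 26 and 31 kb. A WT region centre lay within 1 kb of 4 of these 5 distances, at 8.23, 11.33, 25.66 and 30.79 kb before the Hba-x start. At 21 kb the nearest WT centre was 3.78 kb away. A Nan/+ centre lay within 1 kb of 1 of the 5, the site at 21 kb, with the 349 bp region centred 20.28 kb before Hba-x. For the other 4 the nearest Nan/+ centre was 5.72 to 9.21 kb away. The stretch with these distances held more WT regions, 7 in Nprl3 and 2 before Hba-x, against 2 and 0 in Nan/+. More WT centres could thus fall near a distance. How many would do so at any other set of distances was not counted. The distance of 1 kb was chosen after the regions were seen, the names are rounded, and the hypersensitive sites themselves were not located here. With 500 bp, also chosen after the regions were seen, a WT centre lay near 3 of the 5 and a Nan/+ centre near 0, so the Nan/+ count and the site at 12 kb rest on the wider distance.

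In the space between Nprl3 and Hba-x the WT regions were 32268052-32268688 (637 bp), 345 bp before the Nprl3 start, and 32270220-32270522 (303 bp). The former is the 1 centred 8.23 kb before Hba-x, and 1804 of the 9181 WT regions were wider. The nearest Nan/+ regions lay 9036 and 7202 bp away. In the Nan/+ list the space without a region ran for 21.2 kb, from the region 20.28 kb before Hba-x into Hba-x itself, and it takes in the Nprl3 start.

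Hba-x (11:32276600-32278116, gene ID 15126), which is expressed mainly in primitive red cells before the liver takes over, had no WT region in its body and 1 Nan/+ region, 32277725-32277900 (176 bp), 216 bp before its end. The nearest WT region was 2834 bp further on, at 32280735-32281317 (583 bp), between Hba-x and Hba-a1. The body of the embryonic gene thus had no called region in WT, although 6 WT regions had their centre within 10 kb of the gene. What the Nan/+ list held in the body was at its minimum width.

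The adult genes Hba-a1 (11:32283672-32284486, gene ID 15122) and Hba-a2 (11:32296492-32297310, gene ID 110257) encode the alpha chain of adult haemoglobin. Neither body held the centre of a region in either list, and the widest regions of the window lay just behind each of them. Behind Hba-a1 the WT region 32284645-32285873 (1229 bp) began 159 bp past the gene, and the Nan/+ region 32284295-32286215 (1921 bp) began inside it and took in its last 192 bases. These had nearly the same centre, 4 bp apart, and the Nan/+ region contained the whole WT region. Behind Hba-a2 the WT region 32297599-32298534 (936 bp) began 289 bp past the gene and the Nan/+ region 32297478-32299463 (1986 bp) began 168 bp past it. Their centres were 404 bp apart and the WT region again lay wholly inside the Nan/+ region, which reached further away from the gene. Before the Hba-a1 start, the Nan/+ list alone had a region at 32283210-32283385 (176 bp), from 462 to 287 bases before it, while no region of that list lay before Hba-a2 within the same distance.

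Set side by side from the starts of Hba-a1 and Hba-a2, which are 12820 bp apart, the WT list held 3 regions in each unit, of which the first 2 overlapped in distance from the adult gene start and the third matched only in distance from the theta gene start. The first lay before the gene, 2937 to 2355 bases before Hba-a1 (583 bp) and 2572 to 2366 bases before Hba-a2 (207 bp). The second lay behind the gene, from 973 to 2201 bases past the Hba-a1 start and from 1107 to 2042 past the Hba-a2 start. The third lay 3209 to 3407 bases past the Hba-a1 start and 3499 to 3754 past the Hba-a2 start, which do not overlap, since the theta genes start 3292 and 3577 bp past the adult starts. It spanned the theta gene start, from 83 bases before Hbq1b (32286881-32287079, 199 bp) and from 78 bases before Hbq1a (32299991-32300246, 256 bp). The function of the theta genes is not settled. The Nan/+ list matched between the units at the position behind the gene alone. Its other 2 regions, the 1 before Hba-a1 and 32287553-32287728 inside Hbq1b (176 bp), had no counterpart at Hba-a2 and Hbq1a. Because the 2 units are near copies, with identical promoters over 297 bases, a read can fit both. How the authors placed such reads is not given in the sources used here, and its part in the positions that recur, or in the absence of regions over the Hba-a1 and Hba-a2 promoters, was not tested.

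**Figure D2:**
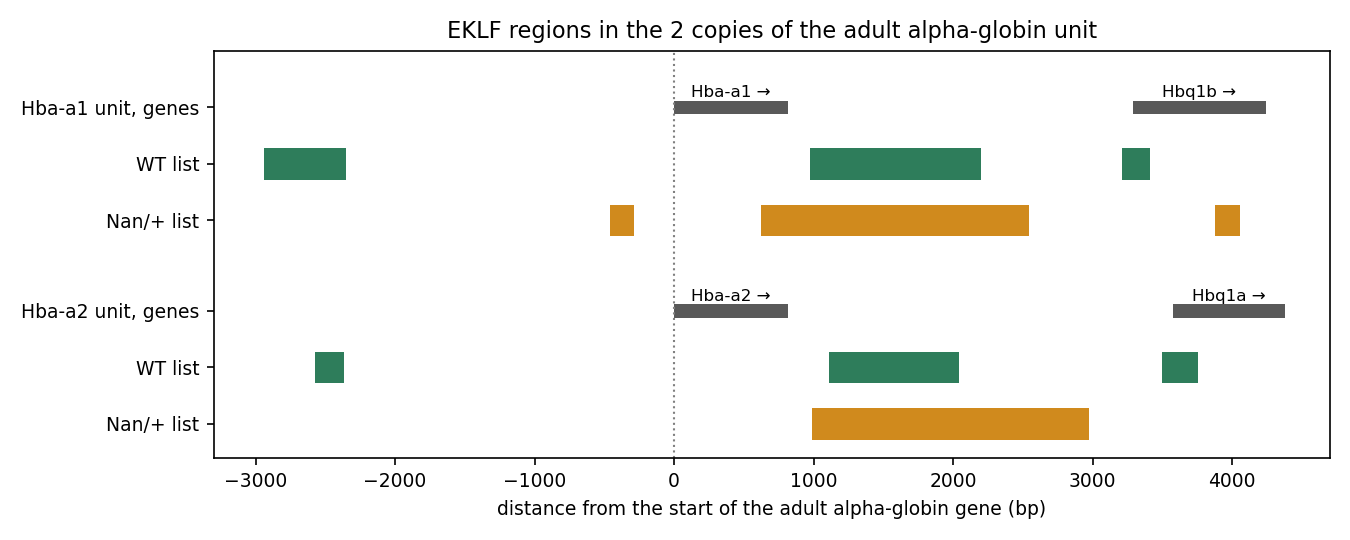
Regions of each list by distance in bp from the start of Hba-a1 (upper tracks) and Hba-a2 (lower tracks), with gene bodies in grey. The first 2 WT blocks (green) overlap in distance between the units and the third follows the theta gene start, while of the Nan/+ blocks (orange) the wide block behind the gene recurs and the 2 blocks of 176 bp at Hba-a1 and Hbq1b do not.

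Width is the only size the lists give, and it depends on the calling settings, which differed between the lists. Within the WT list the 2 shared regions, at 1229 and 936 bp, were the widest of the window, and 173 and 564 of the 9181 WT regions were wider. The 13 other WT regions ran from 199 to 637 bp with a median of 303 bp, against 396 bp over the whole list, and none had the minimum width of 126 bp. Within the Nan/+ list the regions behind Hba-a2 and Hba-a1 stood near the top, with only 9 and 12 of 15564 regions wider. Of the 5 other Nan/+ regions 4 had the minimum width of 176 bp, as did 54.5% of the whole Nan/+ list. The exception was the 349 bp region in Nprl3, and 2229 Nan/+ regions were wider than it. Nan/+ regions of the window were thus 2 very wide ones behind the adult genes, 4 at the minimum width and the 349 bp region. The last was wider than the list median of 176 bp. WT widths were graded, from 199 to 1229 bp.

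**Figure D3:**
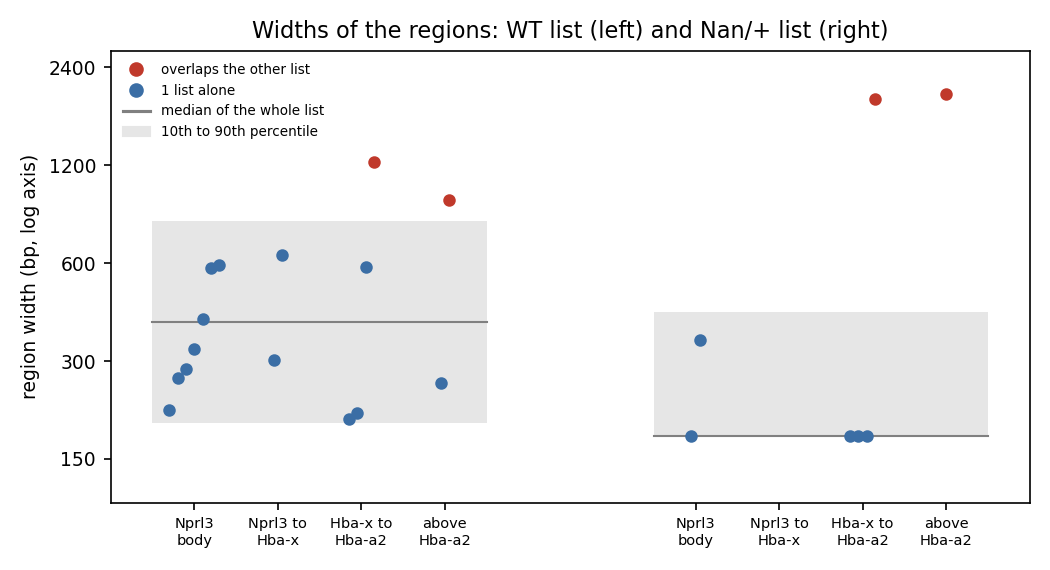
Width of each region in bp (log axis) by its place in the window, WT list on the left and Nan/+ list on the right, with the median (line) and the 10th to 90th percentile (grey) of each whole list. The shared regions (red) behind Hba-a1 and Hba-a2 are the widest of the window in both lists, at 1229 and 936 bp in WT and 1921 and 1986 bp in Nan/+.

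Of the 15 WT regions 2 overlapped a Nan/+ region, or 13.3% (exact Clopper-Pearson 95% interval 1.66 to 40.5), and the share over the whole WT list was 24.5%. Of the 7 Nan/+ regions 2 were shared, or 28.6% (3.67 to 71.0), and the share over the whole list was 14.7%. The intervals cover counting error only, both contain the share of the whole list, and neighbouring regions are not independent. Counted in bases, 2165 of 7012 bp called in WT (30.9%) and of 4960 bp called in Nan/+ (43.6%) were common, against 19.1% and 20.1% over the whole lists. The common bases came wholly from the 2 regions behind Hba-a1 and Hba-a2. The sharing rule itself bore on them: with a reciprocal overlap of at least 50%, or with centres within 250 bp, the pair behind Hba-a1 counted as shared and the pair behind Hba-a2 did not. With a gap of up to 1 kb allowed, 4 WT and 3 Nan/+ regions counted, since the WT regions at both theta starts lay near Nan/+ regions (473 and 527 bp). Shares over the whole lists were not counted under these other rules. Whether such counts are high or low for the lists is therefore unknown.

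Regions called in 1 list alone all lay within 10 kb of the other list here. Within 1 kb lay 2 of 13 in WT and 1 of 5 in Nan/+, and the genome share at that distance was not counted. All 13 WT regions without an overlap had a Nan/+ region within 10 kb (473 to 9911 bp away), against 46.8% of such WT regions over the genome. All 5 Nan/+ regions without an overlap had a WT region within 10 kb (473 to 4217 bp away), against 27.1% over the genome. These shares do not allow for the density of the window. It was dense, at 18.7 WT and 8.71 Nan/+ regions per 100 kb, against 0.710 and 1.01 over chromosome 11. The WT list thus exceeded the Nan/+ list in the window, 15 to 7, while over the chromosome it was the shorter, with 841 regions to 1199. This was not particular to the window. The beta-globin cluster also held more WT than Nan/+ regions, 9 to 5, or 11.9 and 6.61 per 100 kb. No test of these differences was made. Centres no more than 1 kb from the nearest protein-coding gene end numbered 6 of 15 in WT, where the whole list had 46.1%, and 4 of 7 in Nan/+, where it had 21.8%.

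At the edges of the window the lists differed again. In WT the first member lay 7.73 kb inside the lower edge and the nearest region outside it was 293 kb beyond, while at the higher edge the nearest lay 7.19 kb inside and 17.5 kb outside. In Nan/+ the nearest regions outside were 9.46 kb and 38.8 kb from the edges, the former (32217397-32217615, 219 bp) in Rhbdf1, which encodes an inactive rhomboid protein. Of 7 genes of the surrounding domain, listed with earlier results known, 2 had a WT region in the body or within 10 kb, and 6 had a Nan/+ region. The 2 in WT were Nprl3 and its neighbour Mpg, which share regions. The 4 with a Nan/+ region alone were Snrnp25, encoding a protein of the minor spliceosome, and Rhbdf1, which count the same region, and Sh3pxd2b and Ubtd2 on the far side of the globin genes. Over all protein-coding genes 32.9% had a WT region by this rule and 36.9% a Nan/+ region.

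By number of WT regions Nprl3 ranked high: 58 of 21900 protein-coding genes, Nprl3 among them, had at least 7 with the centre in the body (0.265%). At least 2 Nan/+ regions were found in 1923 genes (8.78%). The count does not allow for gene length. Of the other GATOR1 genes, counted within 10 kb, Nprl2 had 3 WT and 1 Nan/+ regions, 1 of each shared, and Depdc5 had 1 and 4 with none shared, against 9 and 2 at Nprl3, none shared.

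Among 10 globin genes of both clusters, 8 had a WT region in the body or within 10 kb and 7 had a Nan/+ region. Over all protein-coding genes the shares were 32.9% and 36.9%. All 5 genes of the alpha cluster counted in both lists by this rule. The bodies of Hba-a1 and Hba-a2 nevertheless held no region centre in either list, and that of Hba-x held none in WT. Hbb-y, the embryonic epsilon-type gene, had 2 WT regions within 10 kb, none of them in its body, and 0 in Nan/+. Hbb-bh1 and Hbb-bh2 had none. Neighbouring genes count the same region. The beta-globin cluster, from 5 kb beyond Hbb-bt to 30 kb beyond Hbb-y on the side of its control region, held 9 WT and 5 Nan/+ regions in 75.7 kb. There 2 WT and 3 Nan/+ regions were shared. Both clusters thus had 2 shared WT regions, but they lay behind the adult genes in the alpha cluster and at 103810481-103812572 and 103825467-103826776 on chromosome 7 in the beta cluster, spanning the ends of the minus-strand adult genes Hbb-bt and Hbb-bs. At both clusters the shared regions therefore lay on the 3′ side of the adult genes. The widest Nan/+ region of the beta cluster had 1612 bp, and its other 4 had the minimum width. Beyond Hbb-y, on the side of the control region, no region of either list was shared, as over Nprl3. The WT regions there were 103859080-103859482, 103860938-103861140, 103865731-103866042 and 103870697-103871021. The only Nan/+ region there was 103877222-103877397 (176 bp).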

How the data were processed

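The members and gene lists were chosen with earlier results of these data known. Per the file headers, the authors called regions with HOMER on mm10, setting 3 ChIP libraries of each genotype against input libraries (2 distinct ones in 3 places), with a q of 0.01 and a fold of 4, followed by DESeq2 inside HOMER (log2 fold of 2, false discovery rate of 0.01). Peak size and minimum distance were 125 and 250 bp for WT and 175 and 300 bp for Nan/+, per the file headers. The deposited score column was 1 in every row and was not used as a measure. Bowtie2 2.1 and SAMtools 1.1 are further tools in the submitters' processing notes. Input libraries held 81522594 to 115944854 tags.

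Positions are printed counted from 1. Regions belonged to the window by their centre, and overlap of at least 1 bp counted as shared. Gene ends came from a RefSeq table of GRCm38.p6, strands and promoters from its promoter table. Overlaps were checked on simulated regions and against bedtools 2.31.1, promoters were aligned with Biopython 1.88 and intervals computed with SciPy 1.17.1. The naming rule took the 4 members, all other genes meeting the window, their listed neighbours, the GATOR1 genes and the globin genes. No test was made, since each genotype has 1 list. Alternatives were other sharing rules, windows, gene-end distances and regions above the minimum width.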

Additional observations from a re-analysis of the deposited data

How the results depend on the processing

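No paired analysis was possible because the 3 libraries of a genotype were called into 1 list, which also means that no replicate could be left out. Of 36 alternative counts 23 were within 1.5 times the reported count. Some of the 23 could not have moved, so the tally overstates how stable the counts are. No WT region of the window had the minimum width, so dropping that width left every WT count unchanged. It could not remove the shared Nan/+ regions either, which were wider, nor lower a count of 0. Shared regions numbered 1 in each list, rather than 2, with a reciprocal overlap of at least 50%, with centres within 250 bp, and without the flanks of the window, which hold the pair behind Hba-a2. With a gap of up to 1 kb they numbered 4 in WT. The whole-list share under each of the other sharing rules was not counted. Above the minimum width the Nan/+ list kept 3 of its 7 regions, by construction. That left 1 Nan/+ region in Nprl3 and 1 from Hba-x to Hba-a2. WT regions near a gene end numbered 3, rather than 6, within 500 bp. Within 1 kb of a gene start, an alternative chosen after seeing the data, 4 of 7 starts met a Nan/+ region, against 0 of 7 promoters. Equal list lengths were not run, because the cut falls among Nan/+ regions tied at 176 bp. The lists carry no tag counts, so depth behind a single region is unknown.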
